A study of Mus musculus with 5 samples.

Results

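The adipocyte differentiation genes described here are 10 genes chosen by name as regulators, lipid handling proteins, lipid droplet proteins and secreted products of fat cells, out of 27729 genes measured. They are Pparg, Cebpa, Lpl, Cd36, Fabp4, Plin4, Plin1, Cidec, Adipoq and Cfd, and each matched 1 Ensembl gene. Total RNA came from mouse embryonic fibroblasts (MEFs) of the ICR strain, which are mixed connective tissue cells, taken in medium with fetal bovine serum (day 0) and on days 2, 5, 10 and 14 after the change to a defined medium that turns them into neuron-like cells. There was 1 library per day, so differences between days have no replicate check and could not be tested. The paper names the medium 5C and lists bFGF, leukemia inhibitory factor, vitamin C, 2-mercaptoethanol and the N2 supplement in DMEM/F12, whereas the labels name it 6C. The last library is labelled day 14, although the treatment text beside the label gives day 15. Per the paper's methods, the MEFs were made from embryos stripped of head and inner organs, had been frozen and passaged, and were enriched for firmly attached cells.

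Fat cells form when a mesenchymal precursor turns on the nuclear receptor PPARγ, which pairs with a retinoid X receptor (RXR) on DNA, and C/EBPα, a leucine zipper factor, and each keeps the gene of the other active. Both then act on genes for fatty acid uptake, for the proteins that coat and enlarge the lipid droplet, and for secreted adipokines. Primary MEFs hold cells that can take this route when hormones that drive fat cell formation are given. In a bulk library, fewer cells of a type and less RNA per cell cannot be told apart. Lpl, Cd36, Fabp4 and Pparg are also used by macrophages, Cd36 and Fabp4 by endothelial cells, and Plin4, Lpl and Cd36 by skeletal muscle.

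Together the 10 genes took a larger share of the RNA at each later sampling. Their expected counts, which are the read numbers that RSEM assigns to each gene, summed to 249, 255, 1471, 5466 and 6009 in the libraries of days 0, 2, 5, 10 and 14. As a share of 1000000 counts this was 64.0 on day 0 (exact 95% binomial interval 56.3 to 72.5), 113 (99.7 to 128) for day 2, 434 (412 to 456) for day 5, 1407 (1370 to 1445) for day 10 and 1787 (1742 to 1833) at day 14. These and all other intervals cover counting error only. Fabp4 and Lpl supplied 59.4% of the counts of the 10 genes on day 0 and 73.6% on day 14, so the sum mostly describes these 2 genes. Of the 10 genes, 6 had counts on days 0 and 2, and all 10 had counts from day 5 on. The library totals ran from 2253748 expected counts on day 2 to 3890334 on day 0, and 3 counts stand for a share of 1.33 per 1000000 in the day 2 library and of 0.771 to 0.892 in the other libraries.

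Below, a level is a normalized count, which is the expected count divided by the effective library size (TMM method) and brought to a common depth, or TPM where genes are compared with each other. A change is the log2 ratio of normalized counts plus 1 to day 0, and a gene was counted as changed past 2-fold. Its 95% interval is the exact interval of the ratio of the counts, without the added 1. Where day 0 held 0 counts, the change is given as a lower bound against 3 counts in the day 0 library. Gene positions are those of GENCODE M21 on GRCm38.

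On day 2, 3 of the 10 genes (Lpl, Fabp4 and Cd36) were over 2-fold above day 0, against 15.2% of the 13346 genes that reached 10 expected counts in at least 1 library. Pparg was over 2-fold below it, against 13.1%. On day 5, 7 were over 2-fold up, against 20.2%, and 0 were down, against 13.6%. On day 10, 9 were up, against 28.7%, and 0 were down, against 22.3%, and on day 14 the numbers were again 9 and 0, against 24.5% and 19.9%. The gene outside the 9 was Pparg on both days. With the genes at 0 on day 0 set to their lower bound, 6 genes passed 2-fold on day 5, 8 on day 10 and 9 on day 14. All 10 genes passed the filter on low counts, but Adipoq, Plin1, Cidec and Cfd passed it through the later days alone, so a rise was the one direction open to them. The median change of the 10 genes was 0.05, 2.28, 3.85 and 4.87 for days 2, 5, 10 and 14, and 0.05, 1.51, 3.85 and 4.52 with those genes at their bound. The medians of all 13346 genes were −0.03, 0.05, 0.14 and 0.07.

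**Figure D1:**
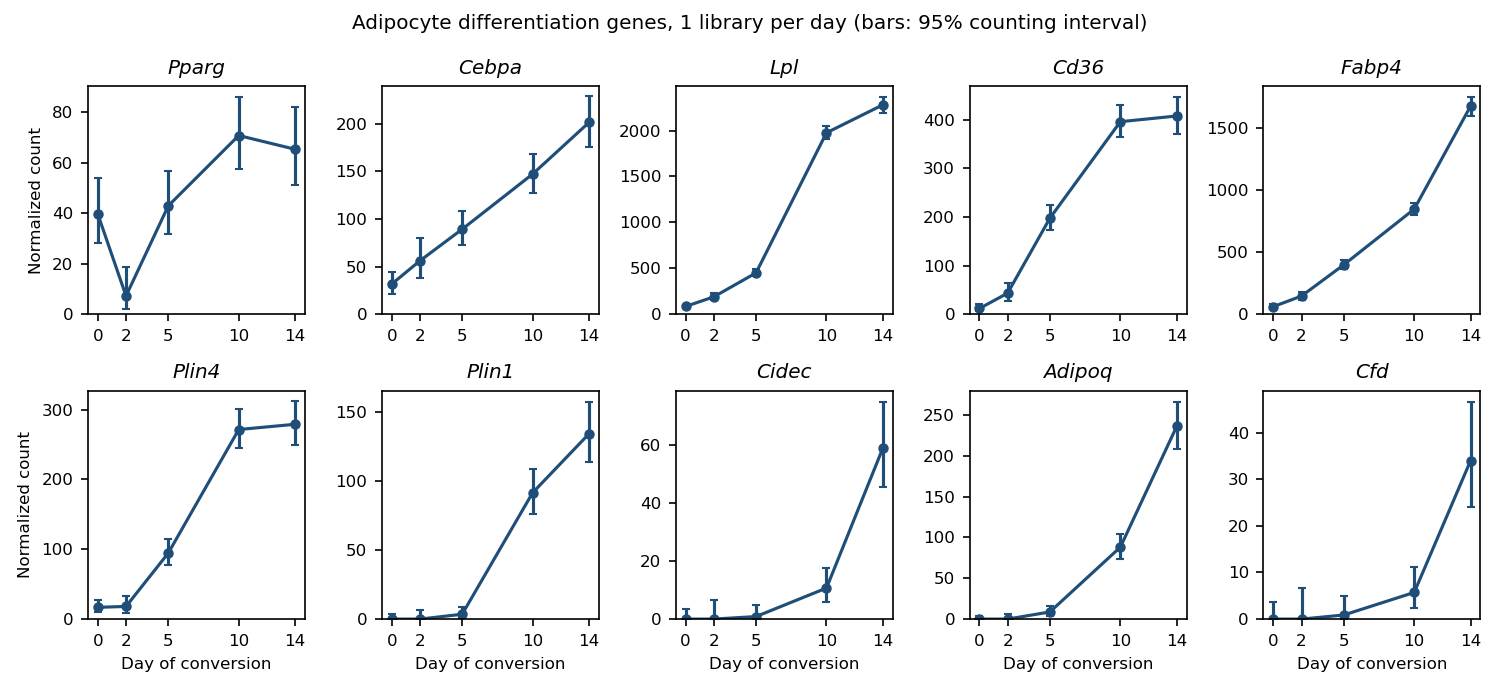
Normalized counts of the 10 adipocyte differentiation genes (vertical axes, linear, each gene on its own scale from 0) by day of conversion (horizontal axes), with 1 point per library and bars for exact 95% Poisson counting intervals. Pparg dips to 7.24 on day 2, Cebpa climbs evenly, Cd36 and Plin4 level off after day 10, and Cidec, Adipoq and Cfd climb most between days 10 and 14.

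The 2 regulators followed different courses. Pparg (ENSMUSG00000000440, chromosome 6, 115360951 to 115490399, plus strand), the PPARγ gene, had 39.6, 7.24, 42.9, 70.7 and 65.3 normalized counts in the libraries of days 0, 2, 5, 10 and 14. It was lowest on day 2, with 4 expected counts, was back near its day 0 level on day 5, and stayed under 2-fold above that level to the end. Its log2 change was −2.30 (−4.40 to −0.98) on day 2 and 0.11 (−0.52 to 0.76) on day 5. At days 10 and 14 it was 0.82 (0.29 to 1.40) and 0.71 (0.15 to 1.32). With TPM values the changes on days 10 and 14 were 1.82 and 1.46, past 2-fold, but on that scale the median of all genes also rose, by 1.09 and 0.78. Cebpa (ENSMUSG00000034957, chromosome 7, 35119293 to 35121928, plus strand), the C/EBPα gene, had 31.7, 56.1, 89.2, 147 and 201 normalized counts in the same libraries. Cebpa was thus higher at each later sampling, without a dip on day 2. Its log2 change was 0.81 (0.06 to 1.58) at day 2, 1.47 (0.91 to 2.12) at day 5, and 2.63 (2.13 to 3.25) at the end. The step between consecutive days was between 0.45 and 0.81 for Cebpa, whereas for Pparg it was −2.30, 2.41, 0.71 and −0.11. An antisense gene, Gm45091, shares 51 exonic bases (1.93%) with Cebpa, and whether the counting used strand is not given in the sources used here.

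The start regions of these genes are shown because their best known common input is a pair of DNA words, the site of the PPAR and RXR pair, which is AGGTCA repeated after 1 base of any kind, and that of the C/EBP family, TTGCNNAA. The 250 bases before each RefSeq start (GRCm38.p6) were searched on both strands for these words and for the CCAAT box, the TATA box (TATAAA) and the E box (CACGTG). The table of starts had 11 for 8 of the genes (3 for Pparg, 2 for Cidec) and none for Lpl or Fabp4. The PPAR and RXR word was in 0 of the 11 regions and in 0.0335% of all 32851 regions, and with any base allowed for the T of each repeat in 0 and 0.338%. The C/EBP word was in 3 of 11 (Cidec, Plin1 and the last of the 3 Pparg starts), against 9.56% of all regions. The CCAAT box was in 5 of 11 (Adipoq, Cd36, Plin4 and 2 of Pparg), against 33.9%, the TATA box in 2 of 11 (Cebpa and 1 of Pparg), against 12.4%, and the E box in 0, against 6.02%. A match is a description of the letters and not a binding site, and no match says only that the letters are absent from these 250 bases. The last Pparg start (chr6:115421816-115422065, plus strand) and the Cebpa start (chr7:35119043-35119292, plus strand) read as follows, 5′ to 3′, with every match to a searched word in capitals.
Pparg: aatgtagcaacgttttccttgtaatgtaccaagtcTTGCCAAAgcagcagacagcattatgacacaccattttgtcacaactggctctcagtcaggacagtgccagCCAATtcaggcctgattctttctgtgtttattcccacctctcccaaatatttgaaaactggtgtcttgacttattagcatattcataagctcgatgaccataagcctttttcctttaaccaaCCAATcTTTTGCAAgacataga
Cebpa: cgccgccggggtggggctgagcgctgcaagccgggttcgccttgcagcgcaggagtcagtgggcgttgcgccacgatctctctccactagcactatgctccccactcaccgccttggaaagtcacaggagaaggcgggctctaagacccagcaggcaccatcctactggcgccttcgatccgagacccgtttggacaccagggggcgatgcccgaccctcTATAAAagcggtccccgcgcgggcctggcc
The Pparg region held C/EBP matches 215 to 208 and 16 to 9 bases before the start and CCAAT boxes at 144 to 140 and 22 to 18. The Cebpa region held a TATA box 30 to 25 bases before the start and no match to the other words.

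The genes for uptake and handling of fatty acids were the first to rise. Lpl (ENSMUSG00000015568, chromosome 8, 68880491 to 68907448, plus strand), lipoprotein lipase, which frees fatty acids from circulating triglyceride, had 85.0, 189, 450, 1975 and 2279 normalized counts in the 5 libraries in order of day. Its log2 change was 1.15 (0.73 to 1.59) on day 2 and 4.73 (4.43 to 5.07) at day 14, and its largest step lay between days 5 and 10, at 2.13 (2.00 to 2.27). Cd36 (ENSMUSG00000002944, chromosome 5, 17781690 to 17888801, minus strand), a membrane receptor that takes up fatty acids, had 11.9, 43.4, 198, 396 and 408. It had the largest log2 change of the 10 genes on day 2, at 1.79 with a lower limit of 0.81, reached 4.95 (4.24 to 6.02) on day 10, and differed between days 10 and 14 by 0.04 (−0.14 to 0.22). Fabp4 (ENSMUSG00000062515, chromosome 3, 10204088 to 10208576, minus strand), a cytoplasmic carrier of fatty acids, had 61.4, 147, 398, 847 and 1676. All its 4 steps lay close to a doubling or above, at 1.24 (0.76 to 1.76), 1.44 (1.10 to 1.80), 1.09 (0.93 to 1.25) and 0.98 (0.88 to 1.09), so that Fabp4 was still climbing at the last sampling while Cd36 had levelled off. Fabp4 reached 1739 TPM on day 14 and stood at rank 59 of the 16288 genes with a TPM above 0, up from rank 3281 with 35.3 TPM on day 0. Lpl had 359 TPM on day 14 at rank 423, and Cd36 75.7 TPM at rank 2520.

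The lipid droplet genes came later. Plin4 (ENSMUSG00000002831, chromosome 17, 56100591 to 56109803, minus strand), which encodes a coat protein of small, newly formed droplets, had 16.8, 18.1, 94.5, 271 and 279 normalized counts from day 0 to day 14. It was level to day 2, at a log2 change of 0.10 (−1.18 to 1.31), and then rose to 3.97 (3.35 to 4.85) on day 14, with 0.04 (−0.18 to 0.26) of this after day 10. Plin1 (ENSMUSG00000030546, chromosome 7, 79720218 to 79732903, minus strand), perilipin, the fat cell coat protein that gates lipolysis, had 0 counts on days 0 and 2, and 3.50, 91.4 and 134 normalized counts on days 5, 10 and 14. It was at least 30.8-fold higher than day 0 on day 10 and at least 45.2-fold higher on day 14. Its largest step was that from day 5, with 4 expected counts, to day 10, with 128. Cidec (ENSMUSG00000030278, chromosome 6, 113424634 to 113435760, minus strand), which promotes the fusion of droplets into large ones, also had 0 counts on days 0 and 2, then 0.875, 10.7 and 59.0 normalized counts, from 1, 15 and 66 expected counts. Cidec was at least 3.61-fold above day 0 on day 10 and at least 19.9-fold above it on day 14. On day 5 Plin4 stood at 33.9% of its day 14 level, Plin1 at 2.61% and Cidec at 1.48%, and on day 10 at 97.3%, 68.2% and 18.2%. The Cidec start with the C/EBP match, 198 to 191 bases before it (chr6:113434765-113435014, minus strand), is printed below with that match in capitals. 
Cidec: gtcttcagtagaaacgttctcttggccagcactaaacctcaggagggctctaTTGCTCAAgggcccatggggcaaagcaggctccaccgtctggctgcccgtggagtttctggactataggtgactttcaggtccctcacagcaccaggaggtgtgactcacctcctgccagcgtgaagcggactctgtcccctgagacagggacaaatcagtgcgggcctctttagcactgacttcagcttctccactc
The Plin1 region held 2 such matches, 187 to 180 and 58 to 51 bases before its start, the nearer of which lies where GENCODE M21 already annotates Plin1 transcript.

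Of the fat cell secretions, Adipoq was detected from day 5 and Cfd was above 8 expected counts on day 14 alone. Adipoq (ENSMUSG00000022878, chromosome 16, 23146536 to 23158028, plus strand), the gene of the fat cell hormone adiponectin, had 0 counts on days 0 and 2, and 8.75, 88.1 and 236 normalized counts on days 5, 10 and 14. These were 10, 123 and 264 expected counts, which put Adipoq at least 2.95-fold, at least 29.7-fold and at least 79.5-fold above day 0. In TPM it passed from 61.6 on day 10, at rank 3370, to 135 on day 14, at rank 1367, so that only Fabp4 and Lpl stood above it among the 10 genes. Cfd (ENSMUSG00000061780, chromosome 10, 79890853 to 79892655, plus strand), adipsin or complement factor D, the protease that starts the alternative complement pathway and a product of fat cells, had 0 counts on days 0 and 2, then 0.875, 5.71 and 34.0 normalized counts, from 1, 8 and 38 expected counts. Cfd was at least 1.92-fold above day 0 on day 10, which does not reach 2-fold, and at least 11.4-fold above it on day 14. Other genes of its pathway rose as well, C3 from 1.98 to 1044 and Cfb from 1.48 to 131 normalized counts between days 0 and 14. The Adipoq start (chr16:23146286-23146535, plus strand) is shown for its 3 CCAAT boxes, which lie 34 to 30, 27 to 23 and 7 to 3 bases before the start and are in capitals, the first 2 read on the other strand.
Adipoq: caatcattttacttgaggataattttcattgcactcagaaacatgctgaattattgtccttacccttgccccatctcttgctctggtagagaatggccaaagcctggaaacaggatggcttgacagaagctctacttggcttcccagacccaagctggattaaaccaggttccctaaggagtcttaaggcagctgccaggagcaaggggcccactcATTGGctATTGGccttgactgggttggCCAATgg

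The 10 genes parted between days 10 and 14. Adipoq, Cidec and Cfd rose over 2-fold, 3 of 10 against 4.73% of all genes kept, and 0 fell over 2-fold, against 8.33%. The log2 change from day 10 to day 14 was 2.38 (1.45 to 3.88) for Cfd, 2.36 (1.64 to 3.38) for Cidec and 1.41 (1.11 to 1.75) for Adipoq. Fabp4, at 0.98 (0.88 to 1.09), lay just inside the threshold. Plin1 changed by 0.55 (0.20 to 0.90) and Cebpa by 0.45 (0.17 to 0.73). Lpl changed by 0.21 (0.13 to 0.28), but by −0.09 with TPM values and −0.02 after quantile normalization, so its direction depends on the scaling. The intervals of Plin4, Cd36 and Pparg included 0. The median step of the 10 genes was 0.50, beside 0.02 for all genes kept.

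**Figure D2:**
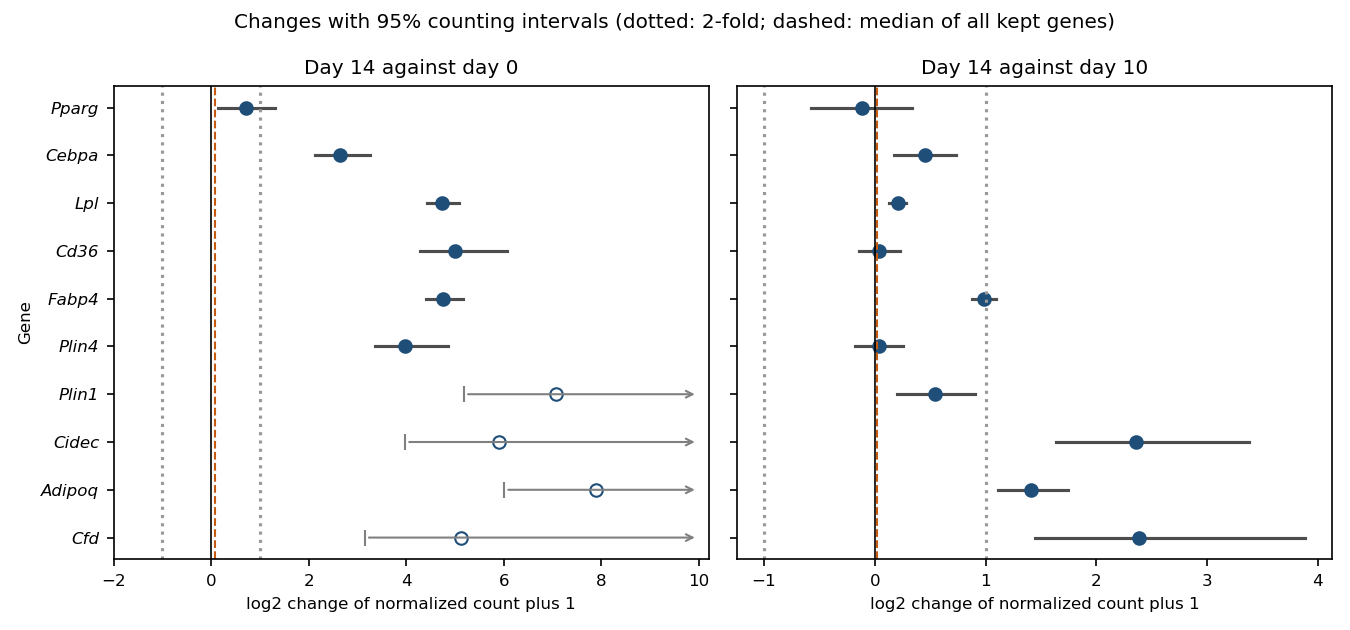
Log2 change of the normalized count plus 1 (horizontal axes) for each of the 10 genes (vertical axis), on day 14 against day 0 (left) and on day 14 against day 10 (right), with exact 95% counting intervals as bars, 2-fold as dotted lines and the median of all genes kept as dashed lines. Open circles with arrows mark the 4 genes at 0 counts on day 0, whose intervals have no upper end, and on the right only Cfd, Cidec and Adipoq lie past 2-fold.

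Short and long transcripts behaved differently in these libraries, and the 10 genes differ in length. Of 5 groups of equal size by length among the genes kept, the shortest (up to 1427 bases) had a median log2 change of −1.14 on day 10, with 12.9% past 2-fold upward and 54.1% downward. The longest group (4233 bases or more) had a median of 0.93, with 48.1% up and 5.02% down. Fabp4 (637 bases), Cfd (923), Adipoq (1066) and Cidec (1425) belong to the shortest group, and they moved against its median. For Cfd, Adipoq and Cidec, at 0 counts on day 0, a rise was the one direction open. Plin4 (5755 bases) belongs to the longest group, with a change on day 10 of 3.93. After subtraction of each group's median all 10 genes were over 2-fold up on day 10, Pparg included. On day 14 the median against day 0 was −0.78 in the shortest group and 0.51 in the longest, so the groups drew together after day 10. Cfd, Cidec, Adipoq and Fabp4, which had the largest steps from day 10 to day 14, are all in the shortest group. Across the settings run, that step ran from 1.01 to 1.46 for Adipoq and from 0.58 to 1.01 for Fabp4. The part of transcript length in the changes was not tested beyond this.

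Gene lists are counted below over the genes that passed the low-count filter, with genes at 0 on day 0 set to their lower bound. Among family relatives, 1 of 4 PPAR and RXR receptors, 0 of 4 C/EBP genes, 0 of 2 perilipin and CIDE genes and 1 of 4 fatty acid binding protein genes were over 2-fold up on day 14, where 24.5% of all genes were, and the groups are too small to set against that share. Among PPAR and RXR receptors, Rxrg went from 0 normalized counts on days 0 and 2 to 36.8, 89.3 and 76.0 on days 5, 10 and 14, at least 25.6-fold above day 0 at the end. Rxra changed by 1.76 (1.51 to 2.03) and Ppard by 1.02 (0.74 to 1.32) on day 10, and both were under 2-fold on day 14, at 0.95 and 0.88. Ppara did not exceed 4 expected counts, and Rxrb had a change of 0.45 (0.14 to 0.77) on day 14. In TPM, which allows genes to be compared, Pparg had 23.5 on day 14 beside 52.5 for Ppard, 65.8 for Rxrb, 39.4 for Rxra and 27.2 for Rxrg, and it was below Ppard, Rxra and Rxrb in each of the 5 libraries.

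In the C/EBP family, Cebpa alone was over 2-fold up. Ddit3, which encodes CHOP, a stress-induced relative that blocks the other members, had 1618, 391, 234, 92.7 and 168 normalized counts in order of day, and its log2 change was −4.11 (−4.39 to −3.87) on day 10. Cebpb, which acts before Cebpa and Pparg in fat cell formation, had 200.5, 329, 175, 70.5 and 128 normalized counts. Its log2 change was −1.50 (−1.87 to −1.15) on day 10 and −0.64 (−0.96 to −0.33) at day 14. Its TPM was higher on day 14 (55.3) than on day 0 (47.2), but on that scale the median of all genes rose by 0.78. With TPM rescaled by TMM, so that days can be compared, Cebpb fell from 65.2 to 43.5. Cebpg and Cebpz stayed within 2-fold on days 10 and 14, Cebpe had 0 counts in all libraries, and Cebpd was not analysed here. Cebpa had 49.4 TPM on day 14, near Cebpb at 55.3, after 4.24 against 47.2 on day 0.

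Among the droplet coat genes, Plin2 and Plin3, which many cell types use, were the most abundant in every library. Plin2 had 206 TPM on day 0 and 397 on day 14, and Plin3 had 51.0 and 131, beside 46.2 for Plin1 and 31.3 for Plin4 on day 14. In normalized counts Plin2 changed by 0.13 (−0.0043 to 0.26) and Plin3 by 0.49 (0.28 to 0.70) on day 14. Plin5 and Cidea, coat and fusion proteins of oxidative tissues and brown fat, had at most 1 expected count in any library. In the fatty acid binding family, Fabp5 was above Fabp4 up to day 10 (1598 against 1067 TPM) and below it on day 14 (829 against 1739 TPM). Fabp3, the muscle and heart form, fell from 451 to 28.6 normalized counts between days 0 and 14, a log2 change of −3.93 (−4.54 to −3.46). Pmp2, the form of myelinating cells, went from 3.96 normalized counts at day 0 to 136 at day 10 and 30.4 at day 14.

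**Figure D3:**
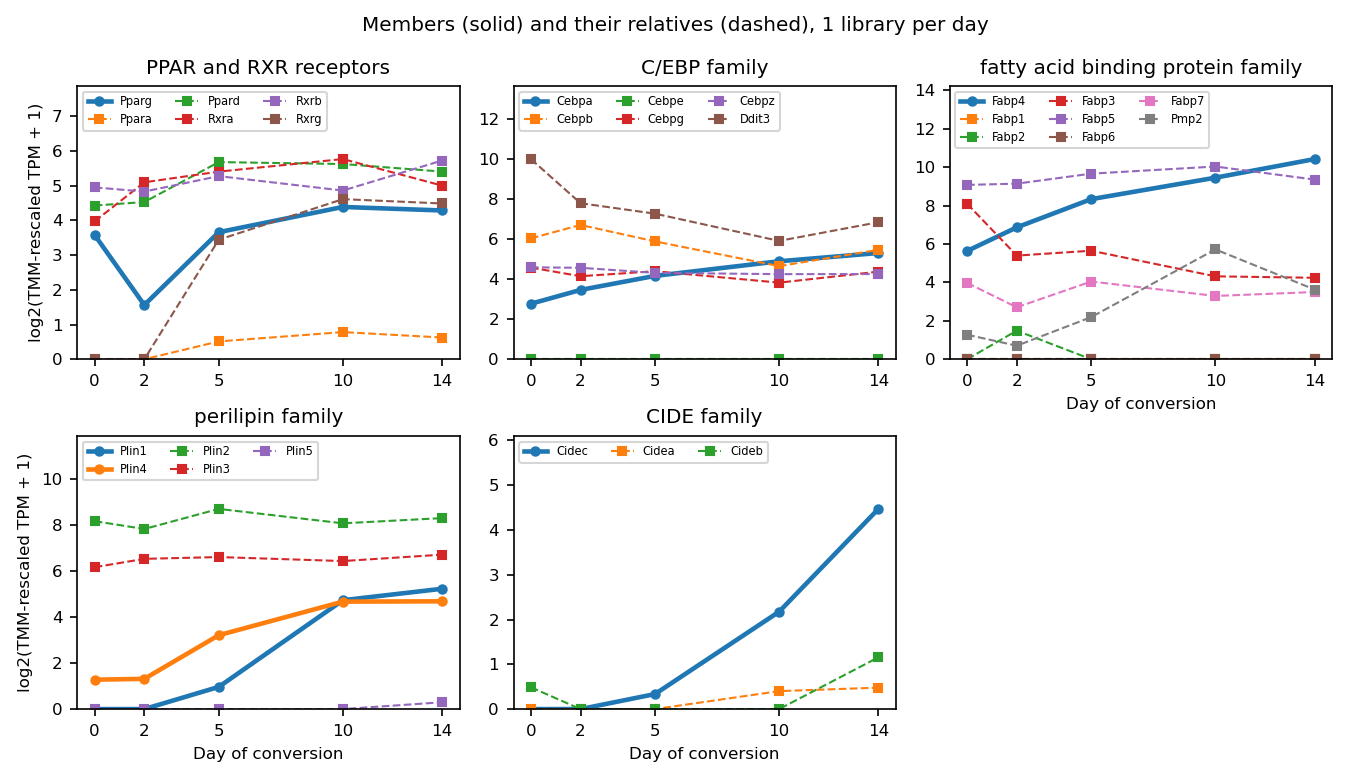
Levels of members (solid) and of their relatives (dashed) as log2 of TPM plus 1 (vertical axes) by day (horizontal axes), with TPM rescaled by TMM so that days can be compared, and 1 point per library. Fabp4 overtakes Fabp5 by day 14, Cebpa reaches the level of Cebpb, Plin2 and Plin3 stay above Plin1 and Plin4, and Cidec leads its family from day 5.

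In the wider pathway the lists differed in how far they stood from all genes, of which 24.5% were up and 19.9% down on day 14. Of 18 genes of mature fat cells other than the 10, 14 passed the filter. Of these 14, 8 (57.1%) were over 2-fold up and 1 was down on day 14, with a median change of 2.51. Each of the 8 had fewer than 10 expected counts on day 0 and so passed the filter through later days alone. Their share is therefore not a fair match to that of all genes. Rarres2, which encodes the adipokine chemerin, had 1 expected count at the start and 540 at day 14, Gpd1, a glycerol phosphate dehydrogenase, went from 4.19 to 188 normalized counts, and Aoc3, a membrane amine oxidase, from 1.98 to 103. Leptin (Lep) had at most 1 expected count and resistin (Retn) 21 on day 14, and Slc2a4, the insulin-sensitive glucose transporter, changed by 0.36 (−0.61 to 1.39). Of 17 genes of fatty acid uptake and triglyceride synthesis 7 (41.2%) were up and 0 down on day 14 (median 0.59), among them Acsl1 at 3.11 (2.67 to 3.64) and Acsl3 at 4.08 (3.57 to 4.74), which activate fatty acids. Gpam, which starts glycerolipid synthesis, went from 3.96 normalized counts on day 0 to 131 on day 10, and its log2 change was 2.39 (1.15 to 4.63) on day 14. Of 14 genes of lipolysis and droplet assembly 4 (28.6%) were up and 3 (21.4%) down on day 14 (median 0.31), near the shares of all genes. There Lipe, the hormone-sensitive lipase, went from 20.8 to 155 normalized counts, and G0s2, an inhibitor of lipolysis, from 4.95 to 101, while Cav1, a caveolar protein abundant in both fibroblasts and fat cells, fell from 2614 to 259. Of 10 genes of fatty acid synthesis 9 were up on day 10, where 28.7% of all genes were, and 5 on day 14, with 0 down (medians 1.45 and 1.16), with Scd1, a desaturase, at 186 normalized counts on day 0 and 3834 on day 14.

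Upstream factors were mixed. The list of 19 adipogenic transcription factors also holds Bmp4, which is a secreted ligand. Of the 19, 12 were over 2-fold up and 2 down on day 10, and 7 and 2 on day 14, with medians of 1.25 and 0.55. Bmp4 was 1 of the 2 down on both days, beside Cebpb on day 10 and Klf5 on day 14. The shares of the 19 were 63.2% up on day 10 and 36.8% on day 14, beside 28.7% and 24.5% of all genes. Srebf1, which drives fatty acid synthesis, went from 212 to 1260.3 normalized counts between days 0 and 14, Nr1h3, the liver X receptor α, from 7.92 to 54.5, and Egr2 (Krox20), which is used in fat cell formation and also in Schwann cells, from 22.8 to 162. Of 18 inhibitors of adipogenesis 4 were up and 5 down on day 10, and 5 and 5 (27.8% each) on day 14, with medians of −0.04 and 0.24, beside 24.5% up and 19.9% down of all genes on day 14. Besides Ddit3, Gata3 fell by 2.96 (interval −4.40 to −2.06) and Klf2 by 1.38 (−1.87 to −0.96) on day 14 on the log2 scale. The 5 inhibitors up on day 14 were Wnt10b at 2.76, Foxo1 at 2.39, Dlk1 at 1.20, Nr2f2 at 1.14 and Sirt1 at 1.13. The members of these lists moved in both directions, and neither list had a common course.

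**Figure D4:**
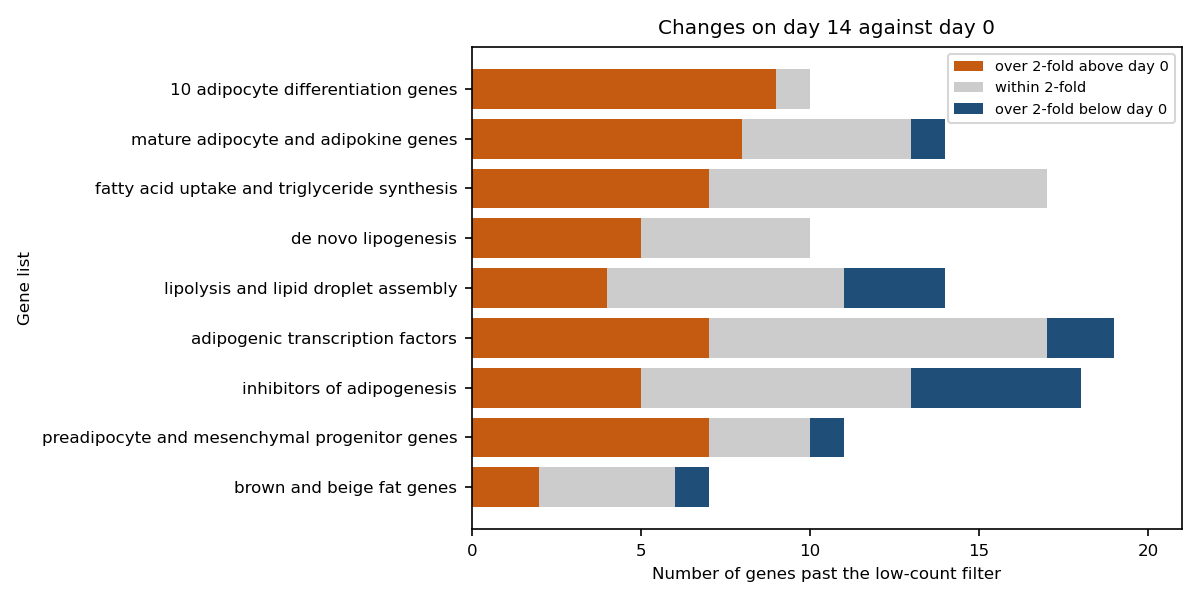
Number of genes past the low-count filter (horizontal axis) in each list (vertical axis) that were over 2-fold above day 0, within 2-fold or over 2-fold below day 0 on day 14, with genes at 0 on day 0 at their lower bound. The 10 genes have 9 up and 0 down, the other mature fat cell genes 8 and 1 of 14, and the inhibitors 5 and 5 of 18.

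Markers of other cell types that use some of the 10 genes moved in these libraries too. The 18 macrophage markers summed to 313, 2397, 4355, 2649 and 1882 normalized counts in order of day. Of the 17 past the filter, 14 were over 2-fold above day 0 on day 10 and 11 on day 14, beside 28.7% and 24.5% of all genes. On both days 1 was over 2-fold below day 0, beside 22.3% and 19.9% of all genes. It was Itgam, with 61.9, 177, 17.6, 6.81 and 7.20 normalized counts in order of day. Lyz2, which encodes lysozyme, made up 2738 of the 4355 on day 5, and without it the sum was 205, 1220.3, 1617, 1242 and 908. Both sums were highest on day 5, but 5 of the 17 markers were highest on day 10 (Adgre1, Cd5l, Cybb, Mrc1 and Ptprc). Cd5l, a secreted macrophage protein, had 0, 12.7, 224, 385 and 333 normalized counts in order of day. The sum of the 10 genes was 1287 on day 5 and 5372 on day 14. On day 2, 16 of 17 macrophage markers were over 2-fold up, beside 15.2% of all genes. On that day Lpl, Cd36 and Fabp4 were up, Pparg was down, and Adipoq, Plin1, Cidec and Cfd were at 0. Adgre1, which encodes the macrophage surface protein F4/80, went from 2.97 normalized counts at day 0 to 72.6 at day 10 and 35.8 at day 14. The part of macrophage RNA in the levels of Lpl, Cd36, Fabp4 and Pparg was not tested. Of the endothelial markers, Cldn5 was at 0 in all libraries and Pecam1 and Cdh5 had at most 5 expected counts. Kdr fell from 236 normalized counts on day 0 to 3.58 on day 14, whereas Egfl7 rose from 44.5 to 204, a log2 change of 2.17 (1.73 to 2.69). The sum of the 10 markers was 661 on day 0, 87.1 at its lowest on day 10 and 266 on day 14, when it was mostly Egfl7. The sum of the 13 skeletal muscle markers fell from 1226 on day 0 to 62.4 on day 14. Acta1 and Des made up 579 and 582 of the day 0 sum. Of the 13, 5 passed the filter, and of these 4 were over 2-fold down on day 14. The other was Myh8, which went from 1.48 to 10.4 normalized counts.

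Markers of the labelled cell type were counted as well. The 15 fibroblast markers, Col1a1, Col1a2 and Col3a1 among them, summed to 81026 normalized counts on day 0. Vim alone made up 29392 of these, while Col3a1, Dcn and Lum had 1316, 102 and 23.8. The sum of the 15 was 119150 on day 14, with 4 over 2-fold up and 4 down (26.7% each), near the 24.5% and 19.9% of all genes. The 12 Schwann cell and neural crest markers summed to 837 on day 0 and 2013 on day 5, and to 10523 and 12469 on days 10 and 14. On day 10, 12 of 12 were over 2-fold up and on day 14, 11 were, beside 28.7% and 24.5% of all genes. The sum of these markers rose alongside that of the 10 genes, and which cells carried the transcripts cannot be told apart in bulk RNA.

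**Figure D5:**
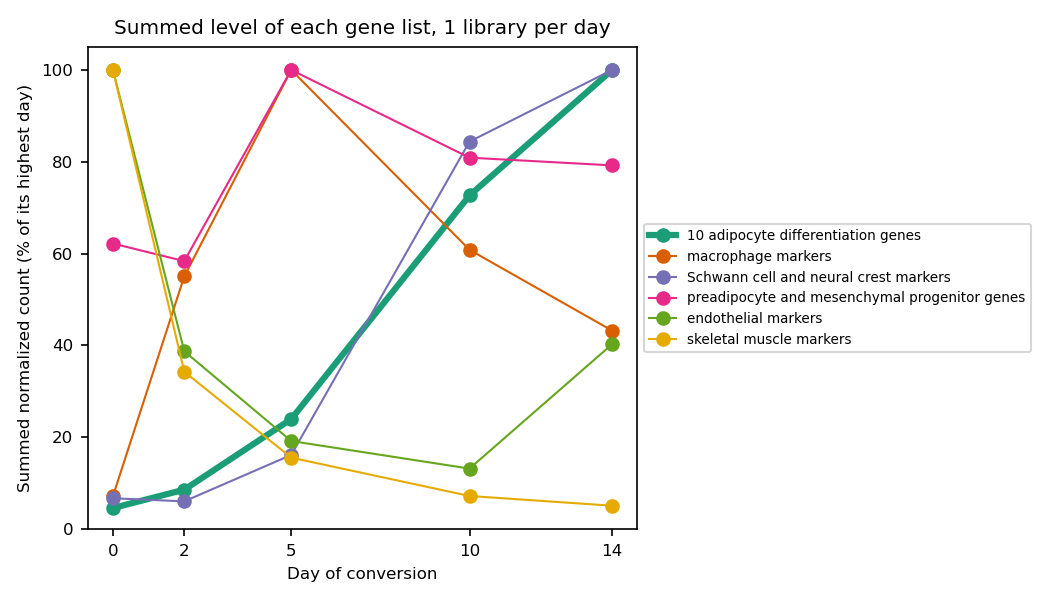
Summed normalized counts of each gene list as a percentage of its highest day (vertical axis, from 0) by day (horizontal axis), with 1 point per library. The 10 genes reach 24.0% on day 5, 72.7% on day 10 and 100% on day 14, near the course of the Schwann cell and neural crest markers, whereas the sum of the macrophage markers peaks on day 5 and is at 43.2% on day 14.

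By TPM on day 14 the 10 genes ranked, from high to low, Fabp4, Lpl, Adipoq, Cd36, Cebpa, Plin1, Plin4, Cidec, Cfd and Pparg, at 1739, 359, 135, 75.7, 49.4, 46.2, 31.3, 26.9, 24.0 and 23.5 TPM. Cebpa and Plin1, and the last 4 genes of this order, lay close together, and without replicate libraries their order is not established. On day 0 the order was Fabp4, Pparg, Lpl, Cebpa, Cd36 and Plin4, at 35.3, 7.91, 7.50, 4.24, 1.18 and 1.03 TPM, with the other 4 genes at 0. Pparg, which lay close to Lpl on day 0 with 7.91 TPM, was thus among the last 4 of the 10 genes on day 14 with 23.5. Between 0% (Adipoq, Plin4, Cidec and Cfd) and 6.07% (Lpl) of their 25-base words also occur in transcripts of other genes.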

How the data were processed

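RNA of 1 library per day (days 0, 2, 5, 10 and 14) was measured, and libraries were assigned to days by their labels. The authors deposited expected counts of RSEM, not scaled for depth, and TPM values, which divide by gene length and sum to 1000000. The submitters' processing notes name Bowtie, RSEM and mm10, without versions. The deposited FPKM values were not used. Expected counts, rounded to whole numbers, gave TMM library sizes (edgeR 4.0.16, R 4.3.3), by which the unrounded counts were divided. The depth was 2253748 to 3890334 counts per library. Changes used a pseudocount of 1, a threshold of 2-fold and genes that reached 10 expected counts in at least 1 library. Intervals were 95% Clopper-Pearson intervals of rounded counts.

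The members and lists were chosen with earlier results of these data known. Besides the members, the genes named were the 3 of each list with the largest change on day 10 or 14 among genes with 50 or more expected counts, all family relatives, and markers of other cell types. Others named for their role or course (Lep, Retn, Slc2a4, Adgre1, Itgam, Vim, Myh8 and Bmp4, and Col1a1 and Col1a2 without a value) were chosen after their values were seen. So were the inhibitors of adipogenesis Wnt10b, Foxo1, Dlk1, Nr2f2 and Sirt1. Alternatives were DESeq2 1.42.0 size factors, total counts, TPM, TPM rescaled by TMM, quantile normalization, library sizes without Gm42418 and Lars2, a pseudocount of 5, other filters, a 4-fold threshold and subtraction of the median of each of 5 length groups. Other lists were counted over genes past the filter, with genes at 0 on day 0 at their bound, a choice made after seeing the data. Symbols came from GENCODE M21 (27247 of 27729 genes matched). The computation was tested on simulated data. Python 3.11.15 was used with numpy 2.4.6, pandas 2.3.3, scipy 1.17.1 and matplotlib 3.10.9.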

Additional observations from a re-analysis of the deposited data

How the results depend on the processing

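The median change of the 10 genes was above 0 on days 5, 10 and 14 in all alternatives run. On day 2 it was 0.05, and 0 with TPM values and after quantile normalization, so it has no direction there. In 157 of 162 comparisons of these results with an alternative, a count stayed within 1.5 times or a median stayed within a set range. That range ran from the mean of the 2 middle lower limits of the 10 genes' counting intervals to that of the 2 middle upper limits. On day 2 the range is wide, because the intervals of the genes at 0 counts have no limits, and it says little there. Requiring 10 or more counts in every library leaves 5 of the 10 genes, and by that construction 5 were over 2-fold up on days 10 and 14, 0 from day 10 to day 14 and 0 down on day 2. Under the same filter the median on day 2 was 1.15 in place of 0.05. With a 4-fold threshold 0 genes were up on day 2. Pparg decided the number on days 10 and 14: it was 10 in place of 9 on both days with TPM values and with total counts, and on day 10 after subtraction of the median of the length group. Counting genes past the filter with day 0 zeros at their bound, an alternative chosen after seeing the data, gave 6, 8 and 9 genes up on days 5, 10 and 14, and it lowered the PPAR and RXR receptors up on day 14 from 2 of 5 measured to 1 of 4. From day 10 to day 14 the number was 4 with DESeq2 size factors. With total counts the median of all genes kept shifted by 0.41, 0.60 and 0.42 on days 5, 10 and 14, and with TPM values by 0.61, 1.09 and 0.78. For TPM this changed the split of all genes on day 10 from 3826 up and 2974 down to 7055 and 904. Among values of single genes of the 10, 39 of 368 left their counting interval. Depth limits Cidec and Cfd on days 5 and 10 and Pparg on day 2, which rest on 1 to 15 counts. No paired analysis was possible because there is 1 library per day.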

Other observations

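Of 12 brown and beige fat genes 7 passed the low-count filter. Of these 4 were over 2-fold up and 0 down on day 10, and 2 (Dio2 and Prdm16) and 1 (Cox7a1) on day 14, beside 28.7% up of all genes on day 10 and 24.5% up and 19.9% down on day 14. The call of Cox7a1 rests on 5 counts against 2, with an interval that includes 0. Prdm16, a regulator of brown fat identity that other cell types use as well, had 7.92, 147 and 98.3 normalized counts on days 0, 10 and 14. Ebf2, a factor of brown and beige precursors, changed by 1.25 (0.65 to 1.96) on day 10 and 0.44 (−0.28 to 1.21) on day 14. Ucp1, the uncoupling protein of brown fat, had 0, 14, 16, 0 and 0 expected counts in order of day.

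Of 11 preadipocyte and mesenchymal progenitor genes 5 were over 2-fold up and 3 down on day 2, 7 and 2 on day 5, 8 and 2 on day 10, and 7 and 1 on day 14. Of all genes 15.2%, 20.2%, 28.7% and 24.5% were up and 13.1%, 13.6%, 22.3% and 19.9% down on these days. The medians of the 11 genes were −0.36, 2.26, 2.09 and 1.93, and the order of these genes and the fat cell genes in time was not tested. Cd34, a surface protein of adipose progenitors and also of endothelial cells, had 19.8, 1073, 875, 263 and 174 normalized counts in order of day. Pi16, a marker of early fibroblast progenitors, was highest on day 5, with 76.9 normalized counts beside 0.99 on day 0 and 20.2 on day 14. Cd24a fell from 358 on day 0 to 29.5 on day 14. Of 7 genes of the alternative complement pathway, in which Cfd acts, 6 were over 2-fold up and 0 down on days 5, 10 and 14. Of all genes 20.2%, 28.7% and 24.5% were up on these days and 13.6%, 22.3% and 19.9% down.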
